A study of Homo sapiens with 12 samples.

Results

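The comparison described here sets U2OS cells that received 10 µM PNKP1i for 24 h against U2OS cells that received the solvent DMSO for the same time. U2OS is a cell line from a human osteosarcoma. The comparison uses the 6 libraries of these groups, 3 of each, out of 12 in the series, and was chosen by the treatment labels alone. PNKP1i is an inhibitor whose structure the sources used here do not give. No cell in either group received the compound TH10785. Of the remaining 6 libraries 3 came from cells given 10 µM TH10785 alone for 24 h. The other 3, the combination group, came from cells given 10 µM TH10785 and 10 µM PNKP1i for 24 h. These 6 libraries entered the filter on low counts, the scaling and the estimate of the spread but neither of the group means compared. The comparison asks what the inhibitor does to the transcriptome by itself. Total counts ran from 16547236 to 19242525 in the DMSO libraries and from 18872657 to 21546369 in the PNKP1i libraries. A floor of 3 counts lies at 0.139 to 0.181 CPM (counts scaled to a common library total) in these libraries, a limit that covers counting error only.

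Markers of the labelled line were present in part. Of 14 mesenchymal and osteosarcoma markers 9 reached 1 CPM, among them VIM, COL1A1, SPARC and RUNX2, while TWIST1 was at 0 in all 6 libraries and SP7, BGLAP, NT5E and COL1A2 were under 1 CPM. Their summed level was 4396 to 5201 CPM with DMSO and 4550 to 4707 CPM with PNKP1i. Of 10 blood markers 0 reached 1 CPM and 4 were at 0 throughout, with sums of 0.717 to 2.08 CPM and 0.690 to 1.83 CPM. Epithelial markers summed to 60.6 to 63.3 CPM with DMSO and 61.9 to 64.4 CPM with PNKP1i, with GRHL2 at 0 and CLDN4 the highest. Of these 10 markers 5 reached a mean of 1 CPM in each group, KRT14 and KRT5 among them (8.01 and 4.09 CPM with DMSO). Neural and muscle markers summed to 39.8 to 41.9 CPM and 41.4 to 47.1 CPM, with MYOG and NEUROD1 at 0. Of these 10 markers 5 reached a mean of 1 CPM with DMSO and 6 with PNKP1i. Among them RBFOX3, OLIG2, TUBB3 and SNAP25 had means of 13.9, 11.4, 7.65 and 4.49 CPM with DMSO.

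ATF4 is the main transcription factor through which cells carry out the integrated stress response. Kinases that phosphorylate the initiation factor eIF2alpha slow translation in general while ATF4 protein is made, and ATF4 then raises genes for amino acid synthesis, amino acid uptake and tRNA charging. NRF2 is held in check by KEAP1 and, when released, raises enzymes of quinone, haem, iron and glutathione metabolism. Both programmes are measured here as RNA, and neither protein was measured in the data used here.

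With PNKP1i, 34 of 17290 tested genes changed (0.197%), 30 upward (0.174%) and 4 downward (0.0231%), by edgeR's quasi-likelihood F test over all 12 libraries, with p adjusted by Benjamini-Hochberg and a threshold of 0.05. Below, rose and fell are used of these genes, and a change is given as the log2 fold change with its standard error (SE). A fit of only the 6 libraries compared called 1150 of 16273 genes (7.07%), 593 higher (3.64%) and 557 lower (3.42%), and held all 34. Genes from that fit alone are described as called over 6 libraries. Where a gene named for such a call lost it with offsets for the GC content and length of transcripts, this is stated beside it. Calls that the offsets added over 12 libraries are given for some genes only. An unadjusted p under 0.05 by edgeR was found in 11.3% of all genes over 12 libraries and in 23.2% over 6. The spread differed between groups: the biological coefficient of variation was 11.2% within DMSO and 9.35% within PNKP1i, but 20.8% and 17.1% within the TH10785 and combination groups, and 15.4% over 12 libraries against 10.3% over 6. Without regard to any test, the 3 PNKP1i libraries lay above the 3 DMSO libraries in 2016 genes (11.7%) and below them in 2454 (14.2%), together 4470 (25.9%). All 34 genes and 1124 of the 1150 were free of overlap, so freedom from overlap adds little for a gene named for its call. In bulk RNA, fewer cells of a kind and less RNA per cell cannot be told apart.

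**Figure D1:**
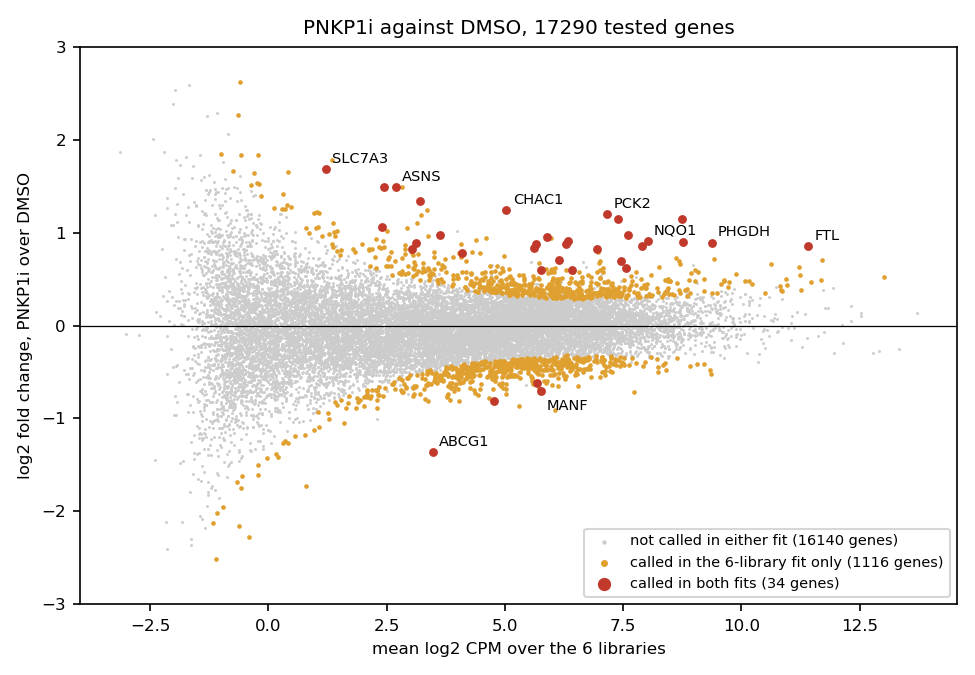
Log2 fold change of PNKP1i over DMSO (vertical axis) against the mean log2 CPM over the 6 libraries (horizontal axis), 1 point a gene; red points were called over 12 libraries, ochre points over 6 libraries only and grey points in neither. The 4 falls called over 12 libraries, ABCG1 lowest, face 30 rises, and 6 genes lie beyond the vertical axis.

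The changes were of moderate size. The median log2 fold change of all tested genes was -0.02, and the middle of the distribution, from the 5th to the 95th percentile, ran from -0.56 to 0.53. Counted over all 17290 tested genes, whether called or not, the fitted level was at least 2-fold higher in 186 genes, 124 of them without overlap. It was at least 2-fold lower in 174 genes, 111 of them without overlap. Among the genes called over 6 libraries the median was 0.46 for those higher and -0.46 for those lower. A change of 1.5-fold was reached by 174 of those higher and 134 of those lower. The first principal component of the 6 libraries, with 32.3% of the variance, placed DMSO at -13, -15 and -36 and PNKP1i at 25.6, 14.3 and 24.2 (replicates 1 to 3). Single libraries moved the number of calls. Over 12 libraries the 34 became 22, 13 and 8 without DMSO replicates 1, 2 and 3, 7 and 9 without PNKP1i replicates 1 and 3, 22 and 301 without TH10785 replicates 2 and 3, and 67 without combination replicate 1. Over 6 libraries the 1150 became 1987, 714 and 338 without DMSO replicates 1, 2 and 3, and 514 and 385 without PNKP1i replicates 1 and 3.

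Of the 30 rises, 14 belonged to lists of ATF4 effectors, amino acid enzymes and transporters and tRNA synthetases, 5 others to the list of NRF2 targets, and 11 to neither. PCK2, INHBE, CHAC1, DDIT4, ASS1 and PSAT1 were called in all 23 alternative settings of the 12-library fit, left-out libraries included. Each of the 34 kept its direction in all of them. Values of the 34 in every library are drawn in the plot of called genes.

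**Figure D2:**
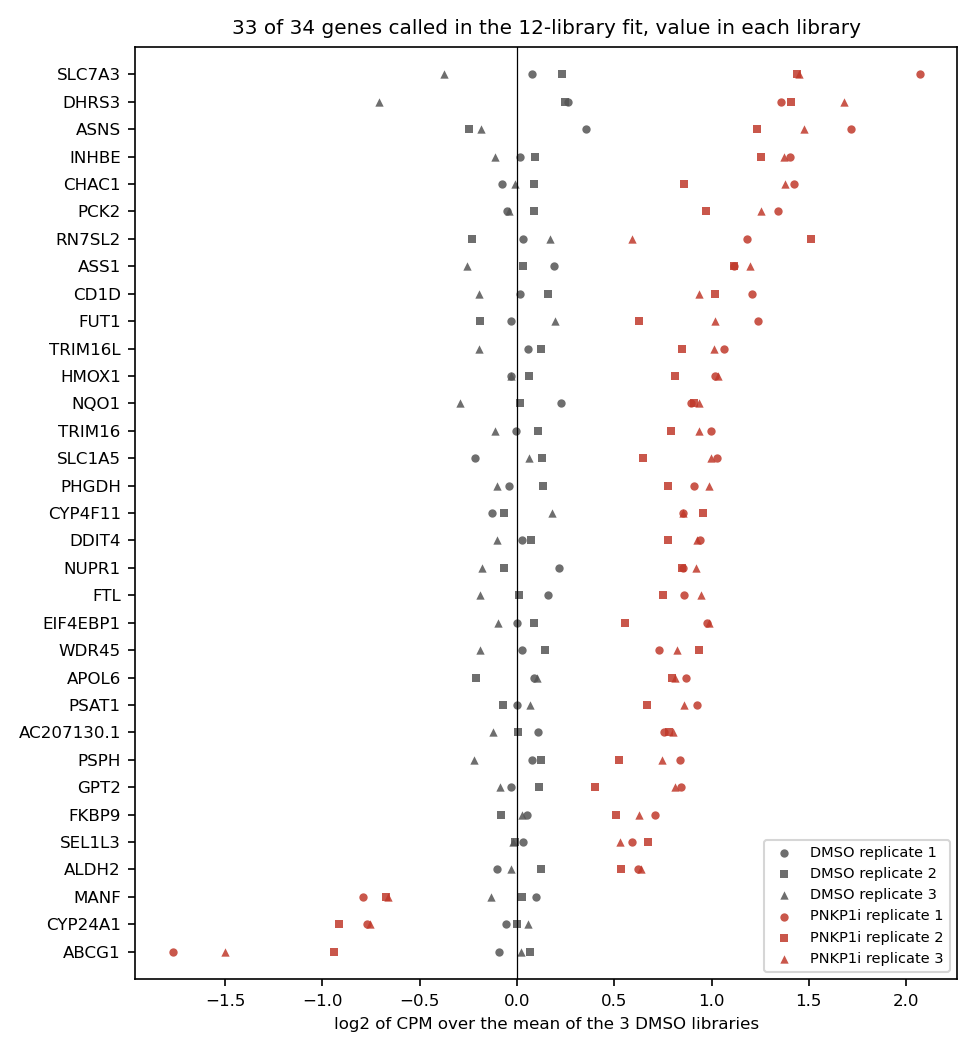
Log2 of CPM over the mean of the 3 DMSO libraries (horizontal axis) for 33 of the 34 genes called over 12 libraries (rows), with grey symbols for DMSO and red for PNKP1i and 1 symbol shape per replicate number. In each row the red and grey symbols are apart, and PNKP1i replicate 2 (red squares) is often nearest to DMSO among the genes of amino acid metabolism.

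The ATF4 effectors had the highest median of the 54 gene lists. Of their 25 tested members 6 rose and 0 fell, 17 were called higher and 0 lower over 6 libraries, and 18 had PNKP1i libraries above all DMSO libraries. The median was 0.70, against -0.02 over all genes. Of all genes 0.174% rose, 3.64% were called higher over 6 libraries and 11.7% had PNKP1i libraries above all DMSO libraries. INHBE (ENSG00000139269, chromosome 12, 57452323 to 57459280 in GRCh38), a secreted inhibin subunit, stood at 5.74, 6.05 and 5.25 CPM with DMSO and 15, 13.6 and 14.7 CPM with PNKP1i. It rose 2.54-fold (log2 1.35, SE 0.16, adjusted p = 0.00169). CHAC1 (ENSG00000128965, chromosome 15, 40952962 to 40956519), which degrades glutathione, stood at 20.2, 22.7 and 21.2 CPM with DMSO and 57.2, 38.8 and 55.5 CPM with PNKP1i (log2 1.24, SE 0.16, adjusted p = 0.00241), and its replicate 2 was well below the other 2 treated libraries. DDIT4 (ENSG00000168209, chromosome 10, 72273920 to 72276036), an inhibitor of mTORC1 signalling, went from 58.7, 60.6 and 53.6 CPM to 111, 98.8 and 109 CPM (log2 0.88, SE 0.11, adjusted p = 0.00241). All treated libraries of these genes lay above all controls.

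NUPR1, a small stress-induced chromatin protein, was at 43.4, 35.7 and 33.02 CPM with DMSO and 67.6, 67.4 and 70.8 CPM with PNKP1i (log2 0.88, SE 0.13, adjusted p = 0.00809). EIF4EBP1, which represses cap-dependent translation when mTORC1 is low, was at 178, 189 and 166 CPM with DMSO and 349, 260.4 and 352 CPM with PNKP1i (log2 0.85, SE 0.16, adjusted p = 0.028). GPT2, the mitochondrial alanine aminotransferase, was at 135, 149 and 129.5 CPM with DMSO and 247, 182 and 242 CPM with PNKP1i (log2 0.7, SE 0.13, adjusted p = 0.0313). For both of the latter the second treated library was the lowest of the group, yet above every control. ATF4 itself had 623, 550 and 439 CPM with DMSO and 884, 808 and 966 CPM with PNKP1i. Its log2 fold change of 0.72 (SE 0.15) missed the 12-library threshold at an adjusted p of 0.0585 and passed over 6 libraries at 0.000345. With GC and length offsets it was called over 12 libraries (log2 0.59, adjusted p = 0.0157).

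Several secreted or regulatory members were called over 6 libraries only. FGF21, a hormone of the fasting response, was at 3.95, 4.09 and 4.496 CPM with DMSO and 13.1, 8.88 and 13.4 CPM with PNKP1i (adjusted p = 2.19e-06 over 6 libraries and 0.0744 over 12). TRIB3, a pseudokinase, went from 42.3, 49.7 and 45.3 to 93.6, 71.9 and 99.5 CPM (log2 0.95, adjusted p = 2.19e-06 over 6 libraries and 0.266 over 12). STC2, a secreted glycoprotein, was low, at 0.479, 0.672 and 0.963 CPM with DMSO and 2.93, 1.45 and 2.37 CPM with PNKP1i (adjusted p = 0.00564 over 6 libraries and 0.0625 over 12). GDF15, a stress cytokine, was at 10.8, 14.8 and 13.3 CPM with DMSO and 20.2, 19.97 and 24.6 CPM with PNKP1i (log2 0.74, adjusted p = 0.000846 over 6 libraries and 0.273 over 12). No treated library of these 4 genes overlapped a control, as in 1124 of the 1150 genes called over 6 libraries. NDRG1, CTH, SLC7A11, JDP2, CEBPB and PPP1R15A were called over 6 libraries as well, with log2 fold changes of 0.49, 0.74, 0.79, 0.42, 0.41 and 0.5.

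Other members of the list were not called in either fit. ATF3 had 24.5, 21.01 and 20.6 CPM with DMSO and 27.1, 20.6 and 24.7 CPM with PNKP1i (log2 0.13, SE 0.16, adjusted p = 0.77), and the groups overlapped. DDIT3, which encodes CHOP, a factor tied to prolonged stress, had 4.07, 2.56 and 3.8 CPM with DMSO and 3.78, 3.88 and 5.48 CPM with PNKP1i (log2 0.33, SE 0.28, adjusted p = 0.646). ATF5 stood at a log2 fold change of 0.09 (SE 0.14) and SESN2, a sensor of leucine and brake on mTORC1, at 0.3 (SE 0.19). None of the 15 genes for the eIF2alpha kinases and their control passed in either fit (median 0.05). In edgeR's fit over 12 libraries 1 of the 15 had an unadjusted p under 0.05, against 11.3% of all genes, and DESeq2 called 0 over 12 libraries and 1 over 6. With GC and length offsets 1 was called higher over 6 libraries, and the median over 12 was 0.10. Of the 15, EIF2AK3, which encodes PERK, had a log2 fold change of -0.05 and EIF2AK4, which encodes GCN2, -0.09.

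Serine synthesis rose as a pathway in 3 of its 3 enzymes. PHGDH (ENSG00000092621, chromosome 1, 119648411 to 119744226), the first enzyme, was at 474, 534 and 454 CPM with DMSO and 916, 835 and 965 CPM with PNKP1i (log2 0.89, SE 0.15, adjusted p = 0.0128). PSAT1 (ENSG00000135069, chromosome 9, 78297143 to 78330093), the second, was at 93.5, 89.1 and 98.05 CPM with DMSO and 178, 149 and 169.5 CPM with PNKP1i (log2 0.82, SE 0.11, adjusted p = 0.00394). PSPH (ENSG00000146733, chromosome 7, 56011051 to 56051604), the last, was at 58.8, 60.7 and 47.9 CPM with DMSO and 99.8, 80.2 and 93.6 CPM with PNKP1i (log2 0.71, SE 0.13, adjusted p = 0.028). The 3 enzymes had fold changes of 1.86, 1.77 and 1.64, and no treated library overlapped a control. The whole list of serine, glycine and folate enzymes had 3 rises (0.174% of all genes rose) and 0 falls among 16 tested members. It had 7 called higher (3.64% of all genes were) and 0 lower over 6 libraries, and a median of 0.27. Of its mitochondrial folate enzymes, SHMT2, MTHFD2 and ALDH1L2 were called over 6 libraries and MTHFD1L was not (log2 0.11, adjusted p = 0.501 over 6 libraries and 0.716 over 12). SHMT2, which moves a carbon from serine to folate, went from 309.6, 359 and 308 to 578, 456 and 552 CPM (log2 0.7, adjusted p = 0.000116 over 6 libraries and 0.0744 over 12). MTHFD2 had a log2 fold change of 0.54 (adjusted p = 0.00117 over 6 libraries and 0.0925 over 12) and ALDH1L2 0.78 (adjusted p = 0.0038 over 6 libraries and 0.281 over 12).

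Asparagine, arginine and proline synthesis contributed 4 rises and 0 falls among 19 tested genes, with 7 called higher and 1 lower over 6 libraries and a median of 0.22. The shares over all genes were 0.174%, 0.0231%, 3.64% and 3.42%, in the same order. ASNS (ENSG00000070669, chromosome 7, 97852118 to 97872542), the asparagine synthetase, was at 4.91, 3.24 and 3.37 CPM with DMSO and 12.6, 9.04 and 10.7 CPM with PNKP1i (log2 1.49, SE 0.21, adjusted p = 0.0043). Its 4 named pseudogenes held 490 counts over the 6 libraries, against 806 for ASNS, so reads may be split among them and its level is uncertain. ASS1 (ENSG00000130707, chromosome 9, 130444929 to 130501274), the argininosuccinate synthase, was at 128, 115 and 94.1 CPM with DMSO and 244, 244 and 258 CPM with PNKP1i (log2 1.14, SE 0.16, adjusted p = 0.00388), and its 11 pseudogenes held 87 counts against 19877. PCK2 (ENSG00000100889, chromosome 14, 24094053 to 24110598), which makes phosphoenolpyruvate in mitochondria, was at 91.3, 100.5 and 91.8 CPM with DMSO and 239.9, 185 and 225 CPM with PNKP1i (log2 1.2, SE 0.14, adjusted p = 0.00169). It overlaps NRL on the opposite strand, which held 107 counts against 17144. These were rises of 2.81, 2.21 and 2.29-fold. The fourth, GPT2, is given above. PYCR1, the last step of proline synthesis, was called over 6 libraries (log2 0.66, adjusted p = 0.000575 over 6 libraries and 0.153 over 12).

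Amino acid transporters split. Of 24 tested, 2 rose, 0 fell, and 7 were called higher over 6 libraries, while the list median was 0.03. Among all genes 0.174% rose and 3.64% were called higher over 6 libraries. SLC7A3 (ENSG00000165349, chromosome X, 70925582 to 70931125), a carrier of cationic amino acids, had the largest rise of the 34 genes at 3.21-fold, from 1.32, 1.47 and 0.963 CPM to 5.24, 3.39 and 3.41 CPM (log2 1.68, SE 0.26, adjusted p = 0.0089), at a low level. SLC1A5 (ENSG00000105281, chromosome 19, 46774883 to 46788594), which carries glutamine, was at 277, 351 and 336 CPM with DMSO and 655, 503 and 641 CPM with PNKP1i (log2 0.9, SE 0.16, adjusted p = 0.0195), and reads of an overlapping gene on the opposite strand may be mixed in. SLC3A2, the heavy chain shared by several carriers, had 381, 447 and 432 CPM with DMSO and 697, 549.5 and 663 CPM with PNKP1i (log2 0.6, adjusted p = 0.000786 over 6 libraries and 0.213 over 12). SLC7A11, the cystine carrier, and SLC1A4, SLC6A9 and SLC43A1 were also called over 6 libraries, SLC43A1 not with GC and length offsets (adjusted p = 0.0664). SLC7A5, the light chain that pairs with SLC3A2, had 792, 937 and 992 CPM with DMSO and 1281, 894 and 1193 CPM with PNKP1i (log2 0.31, SE 0.16, adjusted p = 0.115 over 6 libraries and 0.483 over 12), and replicate 2 lay inside the DMSO range.

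Cytosolic tRNA synthetases and their mitochondrial counterparts had different counts, a difference that was not tested. Of the 22 cytosolic genes 0 passed over 12 libraries (7 at an unadjusted p under 0.05 by edgeR, 6 called by DESeq2) and 7 were called higher over 6: SARS1, CARS1, MARS1, WARS1, AARS1, YARS1 and GARS1, with log2 fold changes of 0.63, 0.57, 0.57, 0.7, 0.48, 0.5 and 0.38. SARS1, which charges serine tRNA, came nearest to the 12-library threshold, with 258, 255 and 230 CPM with DMSO and 404, 349.5 and 401 CPM with PNKP1i (adjusted p = 0.000166 over 6 libraries and 0.0514 over 12). GARS1 was not called over 6 libraries with GC and length offsets (adjusted p = 0.0571). Over 12 libraries 4 of the 22 were called with the offsets. WARS1, for tryptophan, had 98.5, 101 and 105 CPM with DMSO and 179, 142 and 172 CPM with PNKP1i (adjusted p = 2.79e-05 over 6 libraries and 0.0925 over 12). Of the 17 mitochondrial genes 0 were called higher in either fit (0 at an unadjusted p under 0.05 by edgeR over 12 libraries and 4 over 6; in either direction, 0 and 1 called by DESeq2) and 1, IARS2, was called lower over 6 libraries (log2 -0.35, adjusted p = 0.0315 over 6 libraries and 0.446 over 12), and not with the offsets (log2 -0.27, adjusted p = 0.068). The list medians were 0.10 and 0.04. Among all genes 3.64% were called higher and 3.42% lower over 6 libraries.

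The treated libraries differed in the size of these rises. Among the 43 members of the ATF4, amino acid and tRNA synthetase lists called higher over 6 libraries, PNKP1i replicate 2 was the lowest of the 3 treated libraries in 42 (97.7%). Over all 593 genes called higher it was the lowest in 309 (52.1%), and among the 25 remaining members of the NRF2 and NADPH lists in 14 (56.0%). The median of the ATF4 effector list lay 0.65, 0.47 and 0.77 above the DMSO mean in replicates 1, 2 and 3 on the log2 scale. That of the NRF2 targets lay at 0.42, 0.45 and 0.46. Without that replicate the calls numbered 25 over 12 libraries and 1359 over 6.

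**Figure D3:**
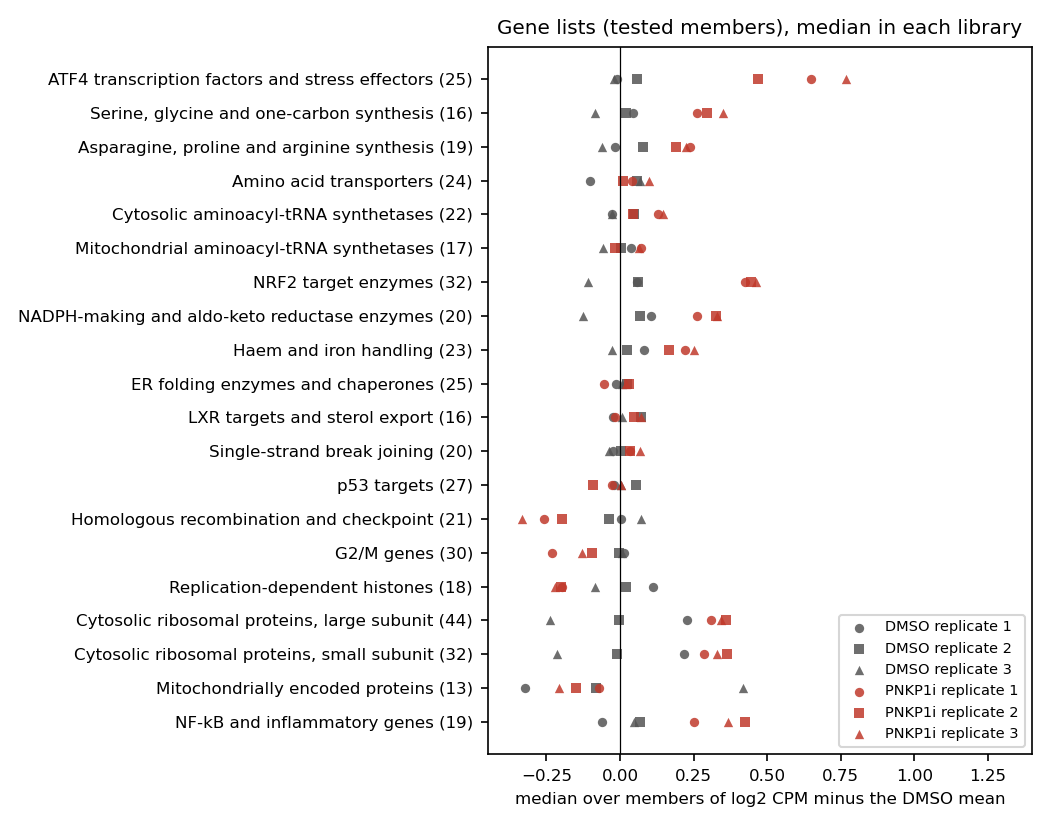
Median over the tested members of 20 gene lists (rows, with the number of members) of log2 CPM minus the DMSO mean (horizontal axis), 1 symbol per library, grey for DMSO and red for PNKP1i. The ATF4 effectors and NRF2 targets are the lists farthest to the right, and PNKP1i replicate 2 is left of its partners in the first of them.

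Promoters of the genes that moved together were searched for the letters of known response elements. The C/EBP-ATF response element (CARE) was searched as TGATGNAA and the antioxidant response element (ARE) as TGACNNNGC, on both strands, in the window from 250 bases before to 50 bases after each start in the RefSeq promoter table (GRCh38.p14). Of the 34 called genes 19 matched an entry, 18 of them rises. CARE letters stood in 3 of these 18 (16.7%), CHAC1, ASNS and FUT1, against 3.67% of all 27305 promoters and 1.86% of the 11745 promoters of tested genes. The share was 4.77% of 440 promoters of genes called higher over 6 libraries and 1.39% of 433 called lower. Within the ATF4, amino acid and tRNA lists, CARE letters stood in 8 of 31 promoters of members called higher over 6 libraries and in 10 of 47 promoters of the other members. A match describes letters only. The following windows show 6 of the matches, each read 5' to 3' on its gene's strand with the matched letters in capitals, since these genes rose or were called higher together. FUT1 and FGF21 are neighbours transcribed away from each other, and the same 56 bases serve as the window of both.
CHAC1: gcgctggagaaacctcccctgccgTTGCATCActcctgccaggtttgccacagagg
ASNS: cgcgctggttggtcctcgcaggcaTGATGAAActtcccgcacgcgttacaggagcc
AARS1: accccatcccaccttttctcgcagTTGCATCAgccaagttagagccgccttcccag
BCAT1: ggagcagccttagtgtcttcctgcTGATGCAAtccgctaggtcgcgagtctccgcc
FGF21: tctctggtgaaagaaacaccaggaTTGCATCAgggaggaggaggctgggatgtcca
FUT1: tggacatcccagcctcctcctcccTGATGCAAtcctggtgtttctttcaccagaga
They lie at chr15:40953238-40953293 (+), chr7:97872445-97872500 (-), chr16:70289662-70289717 (-), chr12:24949118-24949173 (-), chr19:48755446-48755501 (+) and chr19:48755446-48755501 (-). CHAC1, AARS1 and FGF21 hold the element as its reverse complement. FUT1, a fucosyltransferase that builds the H antigen, was at 8.62, 7.696 and 10.1 CPM with DMSO and 20.8, 13.6 and 17.8 CPM with PNKP1i (log2 0.98, SE 0.19, adjusted p = 0.0353). PNKP1i replicate 2 was the lowest treated library for both FUT1 and FGF21. The same was so for 52.1% of the 593 genes called higher over 6 libraries. BCAT1, which transaminates branched-chain amino acids, had 68.7, 70.4 and 70.5 CPM with DMSO and 88.5, 85.5 and 88.2 CPM with PNKP1i (log2 0.32, adjusted p = 0.0242 over 6 libraries and 0.353 over 12).

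NRF2 targets were the other large group. Of 32 tested members 5 rose and 0 fell, 17 were called higher and 0 lower over 6 libraries, 26 were free of overlap upward, and the median was 0.46. Over all genes 0.174% rose, 3.64% were called higher over 6 libraries and 11.7% were free of overlap upward. NQO1 (ENSG00000181019, chromosome 16, 69706996 to 69726951), a quinone reductase, was at 222, 192 and 155 CPM with DMSO and 352, 356 and 363 CPM with PNKP1i (log2 0.91, SE 0.15, adjusted p = 0.0128). HMOX1 (ENSG00000100292, chromosome 22, 35380361 to 35394214), which opens the haem ring, was at 41.7, 44.4 and 41.8 CPM with DMSO and 86.3, 74.97 and 87.2 CPM with PNKP1i (log2 0.96, SE 0.16, adjusted p = 0.0173). FTL (ENSG00000087086, chromosome 19, 48965301 to 48966878), the light chain of the iron store ferritin, was at 2269, 2043 and 1778 CPM with DMSO and 3687, 3418 and 3907 CPM with PNKP1i (log2 0.85, SE 0.16, adjusted p = 0.0353), and its 16 pseudogenes held 106 counts against 312609. The 3 treated libraries of NQO1 were within 352 to 363 CPM, while its controls ran from 155 to 222 CPM. TRIM16 and TRIM16L, close paralogs between which reads may be split, had 1.88-fold and 1.97-fold rises (adjusted p = 0.0102 and 0.00809), TRIM16 from 59.05, 63.9 and 54.9 to 118, 102 and 113 CPM.

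Regulators of the pathway had mixed values. NFE2L2, which encodes NRF2, had 15.7, 16.8 and 20.7 CPM with DMSO and 15.9, 17.3 and 18.2 CPM with PNKP1i (log2 -0.05, SE 0.20, adjusted p = 0.937), and KEAP1 had 146, 153 and 137 CPM with DMSO and 169, 155 and 178 CPM with PNKP1i (log2 0.21, SE 0.13, adjusted p = 0.535). SQSTM1, an autophagy receptor that binds KEAP1, was at 299, 314 and 303 CPM with DMSO and 509, 502 and 508 CPM with PNKP1i (log2 0.73, adjusted p = 1.35e-05 over 6 libraries and 0.0825 over 12), with little spread in either group. MAFG, a small partner of NRF2 on DNA, was called higher over 6 libraries (log2 0.43) and CUL3, the ubiquitin ligase scaffold of KEAP1, lower (log2 -0.42). With GC and length offsets CUL3 was not called (log2 -0.19, adjusted p = 0.236).

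Further antioxidant enzymes were called over 6 libraries only. TXNRD1, the cytosolic thioredoxin reductase, was at 286, 265 and 293 CPM with DMSO and 409, 380.3 and 397 CPM with PNKP1i (log2 0.49, adjusted p = 0.00217 over 6 libraries and 0.266 over 12). GSR, the glutathione reductase, had a log2 fold change of 0.55, PIR 0.78, OSGIN1 0.6 and SRXN1, which repairs peroxiredoxins, 0.46. GCLM and GCLC, the subunits of the enzyme that starts glutathione synthesis, did not pass in either fit, at 0.29 (SE 0.13) and 0.27 (SE 0.16). Neither overlapped between groups, which was also so for 25.9% of all genes. In the list of NADPH-making and aldo-keto reductase enzymes 0 of 20 passed over 12 libraries (9 at an unadjusted p under 0.05 by edgeR, 3 called by DESeq2) and 7 were called higher over 6, against 5 with the offsets (median 0.28). With the offsets 3 were called over 12 libraries. Among all genes 3.64% were called higher over 6 libraries. AKR1C1, which reduces ketosteroids and aldehydes, was at 7.36, 7.45 and 5.14 CPM with DMSO and 16.2, 16.4 and 14.8 CPM with PNKP1i (log2 1.25, adjusted p = 3.55e-06 over 6 libraries and 0.102 over 12). Its paralog AKR1C2 went from 1.44, 1.47 and 0.856 to 2.199, 4.09 and 2.42 CPM (adjusted p = 0.0141 over 6 libraries and 0.244 over 12), and reads may be split between them. ME1, the malic enzyme, had a log2 fold change of 0.37 (adjusted p = 0.0219 over 6 libraries and 0.338 over 12).

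ARE letters stood in 5 of 20 promoters of members of these NRF2 and NADPH lists called higher over 6 libraries and in 8 of 31 promoters of the other members. They stood in 1 of the 18 promoters of the rises (5.56%), that of CYP4F11, against 13.6% of all promoters and 15.1% of those of tested genes. The windows of TXNRD1 (chr12:104215656-104215712, +) and ME1 (chr6:83431156-83431212, -) show the letters in enzymes of the pathway, again in capitals.
TXNRD1: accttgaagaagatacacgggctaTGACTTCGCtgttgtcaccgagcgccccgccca
ME1: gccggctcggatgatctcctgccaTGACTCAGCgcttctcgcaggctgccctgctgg
TXNRD1 and ME1 both lay above every control in all 3 treated libraries. CYP4F11, a fatty acid hydroxylase, was at 5.803, 6.05 and 7.17 CPM with DMSO and 11.4, 12.3 and 11.5 CPM with PNKP1i (log2 0.89, SE 0.18, adjusted p = 0.0492).

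Iron genes moved in both directions over 6 libraries. FTH1, the ferritin heavy chain, was at 1124, 1285 and 1384 CPM with DMSO and 2015, 1938 and 2030 CPM with PNKP1i (log2 0.66, adjusted p = 0.00054 over 6 libraries and 0.0744 over 12). TFRC, the receptor that brings iron into the cell, had 119, 112 and 129.6 CPM with DMSO and 88.01, 88.9 and 77.03 CPM with PNKP1i (log2 -0.51, adjusted p = 0.00219 over 6 libraries and 0.365 over 12). Of the 23 tested genes of haem and iron handling, 2 rose (HMOX1 and FTL), 7 were called higher and 2 lower over 6 libraries, the second being IREB2, which binds the iron-responsive elements of mRNAs (log2 -0.41). With GC and length offsets 6 were called higher and 1 lower, and IREB2 was not (log2 -0.19, adjusted p = 0.322). UROD, an enzyme of haem synthesis, was among the 7, at 0.46. The glutathione, thioredoxin and peroxide enzymes had 1 rise, CHAC1, and 7 of 28 members called higher over 6 libraries (median 0.17), among them PRDX4 and GPX4 at 0.5 and 0.48. For comparison, 0.174% of all genes rose, and 3.64% were called higher and 3.42% lower over 6 libraries.

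**Figure D4:**
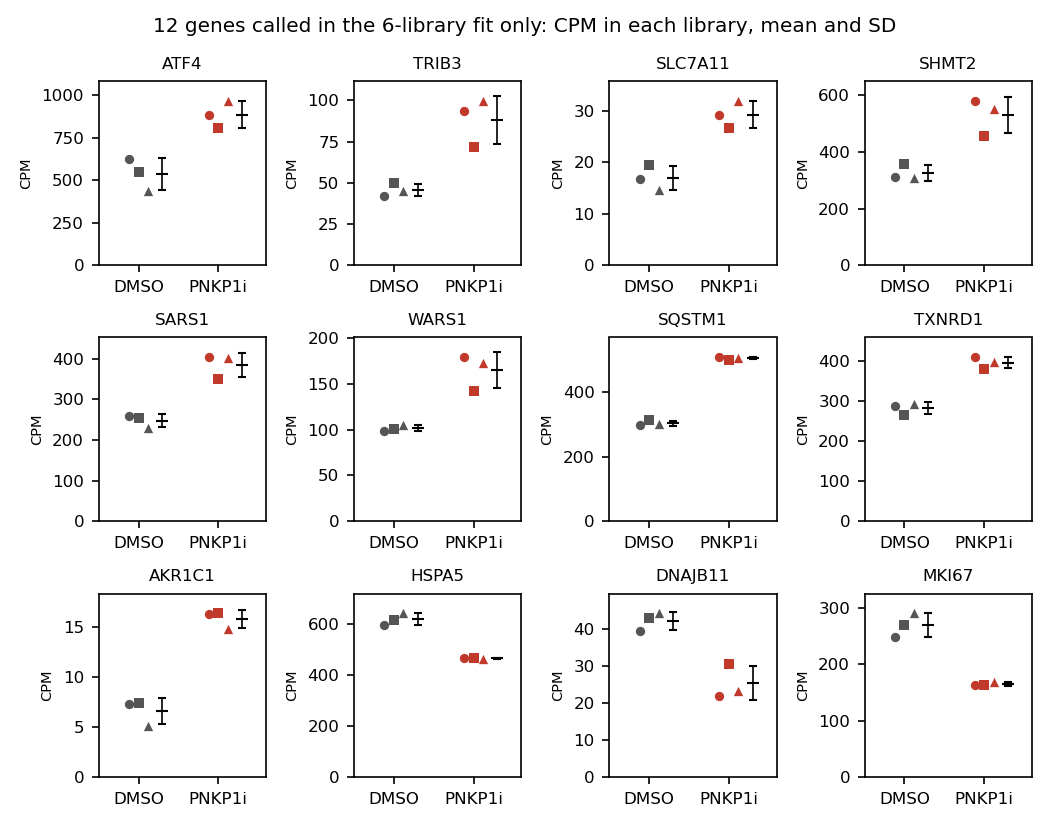
CPM (vertical axes, from 0) in each DMSO (grey) and PNKP1i (red) library for 12 genes called over 6 libraries only, with the mean and SD of each group as a black bar beside the points. In each panel the groups are apart; HSPA5, DNAJB11 and MKI67 are lower with PNKP1i and the other 9 genes higher.

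Chaperones of the endoplasmic reticulum did not share one direction. Of 25 tested, 0 rose and 1 fell, 3 were called higher and 4 lower over 6 libraries, and the median was -0.02. Over all genes 0.174% rose and 0.0231% fell, and 3.64% were called higher and 3.42% lower over 6 libraries. MANF (ENSG00000145050, chromosome 3, 51385047 to 51389397), a secreted chaperone cofactor of the reticulum, fell from 73.7, 70.2 and 62.8 CPM to 39.9, 43.2 and 43.5 CPM (log2 -0.71, SE 0.11, adjusted p = 0.0128). DNAJB11, a co-chaperone of BiP, had 39.6, 42.9 and 44.3 CPM with DMSO and 22.1, 30.6 and 23.4 CPM with PNKP1i (log2 -0.74, adjusted p = 0.000218 over 6 libraries and 0.0925 over 12). HSPA5, which encodes BiP, had 598, 618 and 643 CPM with DMSO and 469, 467 and 464 CPM with PNKP1i (log2 -0.41, adjusted p = 0.0174 over 6 libraries and 0.356 over 12), and HSP90B1 a log2 fold change of -0.41 (adjusted p = 0.0205 over 6 libraries and 0.44 over 12). Called higher were P4HB, a disulphide isomerase (log2 0.45), SEC61B, of the translocation channel (0.3), and XBP1, a transcription factor of the unfolded protein response (0.35). With GC and length offsets, SEC61B was not called over 6 libraries (adjusted p = 0.141) and the remaining 6 were. PDIA4 and HYOU1, at 0.19 and 0.05, were not called in either fit. FKBP9 (ENSG00000122642, chromosome 7, 32957404 to 33006931), a peptidyl-prolyl isomerase of the reticulum outside this list, rose from 158, 144 and 155 to 249.9, 217 and 236 CPM (log2 0.62, SE 0.10, adjusted p = 0.0128). It has 1 pseudogene, with 290 counts against 21143.

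The steepest fall was in ABCG1 (ENSG00000160179, chromosome 21, 42199689 to 42297244), which exports cholesterol and is a target of the sterol receptor LXR. Its libraries stood at 16.8, 18.8 and 18.1 CPM with DMSO and 5.24, 9.31 and 6.32 CPM with PNKP1i (0.389 times the control; log2 -1.36, SE 0.19, adjusted p = 0.0043). Replicate 2 was again the treated library nearest to the controls. In the LXR list it was the 1 fall of 16 members, against 0.0231% of all genes. MYLIP, an LXR target that degrades the LDL receptor, was called lower over 6 libraries (log2 -0.53, adjusted p = 0.0381 over 6 libraries and 0.369 over 12), and ABCA1 was low in every library, at 0.598, 0.305 and 0.268 CPM with DMSO and 0.226, 0.6997 and 0.444 CPM with PNKP1i (log2 0.24, SE 0.63, adjusted p = 0.902). The list median was 0.01. None of the 25 cholesterol synthesis genes passed over 12 libraries (2 at an unadjusted p under 0.05 by edgeR, 0 called by DESeq2). Over 6 libraries 1 of them was called lower, as were 3.42% of all genes, and 0 with GC and length offsets.

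In the vitamin D and retinoid list 1 of 14 tested genes fell and 1 rose, and the median was -0.07. Among all genes 0.0231% fell and 0.174% rose. CYP24A1 (ENSG00000019186, chromosome 20, 54153449 to 54173973), which inactivates vitamin D, fell from 34.5, 35.9 and 37.3 CPM to 21.03, 19.1 and 21.3 CPM (log2 -0.81, SE 0.15, adjusted p = 0.028). DHRS3 (ENSG00000162496, chromosome 1, 12567910 to 12617731), which reduces retinal, rose from 3.89, 3.85 and 1.98 CPM to 8.29, 8.61 and 10.4 CPM, 2.82-fold (log2 1.5, SE 0.25, adjusted p = 0.0128). The receptor VDR was called lower over 6 libraries, from 16.9, 17.6 and 20.1 to 12.9, 11.4 and 15.6 CPM (adjusted p = 0.0469 over 6 libraries and 0.384 over 12), and not with GC and length offsets (adjusted p = 0.0508). The other 11 of 14 tested members were not called in either fit.

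Rises outside all the lists above were of mixed function. SEL1L3 was at 70.7, 68.6 and 68.1 CPM with DMSO and 104, 110.2 and 99.7 CPM with PNKP1i (adjusted p = 0.0267), and overlaps SMIM20 on the opposite strand. ALDH2, which oxidises acetaldehyde, was at 40.98, 47.8 and 43.03 CPM with DMSO and 67.7, 63.6 and 68.3 CPM with PNKP1i (adjusted p = 0.0353). WDR45, a protein of autophagosome formation, was at 37.6, 40.9 and 32.3 CPM with DMSO and 61.2, 70.6 and 65.4 CPM with PNKP1i (adjusted p = 0.0353). CD1D, which presents lipids to T cells, went from 3.65, 4.03 and 3.16 to 8.35, 7.32 and 6.91 CPM (adjusted p = 0.0353) and APOL6 from 6.46, 5.25 and 6.53 to 11.1, 10.6 and 10.7 CPM (adjusted p = 0.0492). The long non-coding AC207130.1 went from 14, 13.1 and 11.9 to 21.9, 22.3 and 22.7 CPM (adjusted p = 0.0129). No treated library of these 6 genes reached down to a control.

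RN7SL2, an RNA of the signal recognition particle, varied widely among the treated libraries, at 299.5, 249.9 and 329 CPM with DMSO and 665, 836 and 441 CPM with PNKP1i (log2 1.14, SE 0.22, adjusted p = 0.0353). Its near-identical copy RN7SL3 was called over 6 libraries, from 4.85, 7.15 and 6.48 to 17.5, 13.6 and 11.2 CPM (adjusted p = 5.69e-05 over 6 libraries and 0.11 over 12). Reads may be split between these copies, so both are uncertain. RN7SL2 is also the 1 gene of the 34 not called with GC and length offsets over 12 libraries (adjusted p = 0.0878), nor was it over 6 (adjusted p = 0.121). Of the proteins of the particle and its receptor, SRPRB alone was called over 6 libraries (log2 0.38, adjusted p = 0.0229 over 6 libraries and 0.369 over 12).

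Among genes called over 6 libraries only, and a mean log2 CPM at or above 3, the 8 largest rises were AKR1C1, RN7SL3, MMP3, DUSP5, TRIB3, LUCAT1, CASP4 and UPP1. MMP3, a matrix protease, was at 5.33, 6.05 and 6.42 CPM with DMSO and 11.8, 13.5 and 13.1 CPM with PNKP1i (adjusted p = 2.19e-05 over 6 libraries and 0.393 over 12). DUSP5, a phosphatase of ERK, was at 5.98, 7.51 and 8.78 CPM with DMSO and 13.9, 14.8 and 14.8 CPM with PNKP1i (adjusted p = 0.000132 over 6 libraries and 0.266 over 12). The non-coding LUCAT1, which overlaps ADGRV1 on the opposite strand, was at 17.6, 17.8 and 16.9 CPM with DMSO and 33.2, 35.6 and 31.2 CPM with PNKP1i (adjusted p = 2.29e-06 over 6 libraries and 0.0925 over 12). CASP4, an inflammatory caspase, had a log2 fold change of 0.87 and UPP1, the uridine phosphorylase, 0.8. The 8 largest falls were TGFB2, LRRN1, DICER1, H2BC4, DNAJC13, PEG3, PIAS1 and CCSER2. TGFB2, a growth factor of the TGF-beta family, was at 84.1, 86.9 and 103 CPM with DMSO and 56.3, 38.8 and 51.2 CPM with PNKP1i (adjusted p = 2.53e-05 over 6 libraries and 0.0744 over 12). DICER1, which cuts microRNA precursors, was at 19.2, 20.8 and 24.8 CPM with DMSO and 11.8, 10.7 and 14.3 CPM with PNKP1i (adjusted p = 0.00045 over 6 libraries and 0.306 over 12). LRRN1, which overlaps SUMF1 on the opposite strand, was at 53.3, 46.4 and 59.7 CPM with DMSO and 31.3, 29.98 and 26.1 CPM with PNKP1i (adjusted p = 7.45e-06 over 6 libraries and 0.0612 over 12). All 16 were still called over 6 libraries with GC and length offsets, with adjusted p from 7.24e-06 (LUCAT1) to 0.0269 (TGFB2).

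Few genes that join broken DNA strands were called, but few of all genes were (0.197% over 12 libraries and 7.07% over 6). Over all genes an unadjusted p under 0.05 by edgeR was found in 11.3% over 12 libraries and 23.2% over 6. Of the 20 genes of single-strand break joining 0 passed in either fit (2 at an unadjusted p under 0.05 by edgeR over 12 libraries and 4 over 6; 0 and 0 called by DESeq2), and the median was 0.06. XRCC1, the scaffold of this repair, had 67.7, 75.9 and 65.8 CPM with DMSO and 70.8, 72.98 and 68.8 CPM with PNKP1i (log2 0.02, SE 0.11, adjusted p = 0.949). LIG3, the ligase of the same complex, had 73.3, 71.8 and 70.2 CPM with DMSO and 74.1, 72.8 and 70.96 CPM with PNKP1i (log2 0.02, SE 0.10, adjusted p = 0.959). PARP1, which senses the breaks, had a log2 fold change of -0.09 (SE 0.10), APTX, which removes AMP from failed ligations, 0.2 (SE 0.12), TDP1 0.04 (SE 0.13) and POLB 0.08 (SE 0.17). OGG1, the glycosylase for oxidised guanine, had 54.8, 54.2 and 46.6 CPM with DMSO and 55.9, 54.6 and 58.2 CPM with PNKP1i (log2 0.12, SE 0.13, adjusted p = 0.739).

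End joining closes breaks in both strands. Of its 12 tested genes 0 passed over 12 libraries (2 at an unadjusted p under 0.05 by edgeR, 0 called by DESeq2) and 1, PRKDC, the catalytic subunit of DNA-PK, was called lower over 6, from 349, 338 and 368 to 257, 259 and 257 CPM (log2 -0.45, adjusted p = 0.00671 over 6 libraries and 0.37 over 12). It was not called with GC and length offsets (adjusted p = 0.0558). XRCC4 and LIG4 were at low levels, 1.14 to 3.23 CPM over the 6 libraries. Among 27 targets of p53, which responds to DNA damage, 0 passed over 12 libraries (2 at an unadjusted p under 0.05 by edgeR, 0 called by DESeq2), and over 6 libraries FDXR was called higher (log2 0.33) and RRM2B lower (log2 -0.48), neither of them with the offsets. CDKN1A, the p53 target that arrests the cell cycle, had 290.4, 297 and 271 CPM with DMSO and 289.6, 238 and 264 CPM with PNKP1i (log2 -0.12, SE 0.13, adjusted p = 0.737). MDM2, which degrades p53, had 34.8, 33.3 and 40.5 CPM with DMSO and 28.7, 29.9 and 25.8 CPM with PNKP1i (log2 -0.36, SE 0.20, adjusted p = 0.487). The p53 list had a median of -0.03.

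Genes of low GC content and genes with long transcripts, taken separately, had lower medians with PNKP1i. Genes under 40% GC (2369) had medians of -0.275, -0.074 and -0.211 (log2) relative to the DMSO mean in the PNKP1i libraries, and of 0.001, -0.051 and 0.055 in the DMSO libraries. PNKP1i replicate 2 thus lay close to DMSO replicate 2 in this class. Genes whose longest transcript has at least 6000 bases (2869) had medians of -0.158, -0.119 and -0.177 with PNKP1i and -0.024, -0.042 and 0.075 with DMSO. Over 6 libraries, 39 of these long genes were called higher and 285 lower, whereas 127 of the 2879 genes under 1500 bases were called higher and 17 lower. The median length was 2282 bases for genes called higher, 6085 for genes called lower and 3229 for all, and the median GC content 55.1%, 42.3% and 49.3%. After offsets for GC content and length, 717 genes were called over 6 libraries, 473 higher and 244 lower, of which 339 and 205 were among the 593 and 557. Over 12 libraries these offsets gave 91 calls, with 33 of the 34 among them. The added calls included ATF4, SHMT2, SARS1, SQSTM1 and TXNRD1 (adjusted p = 0.0157, 0.00705, 0.0264, 0.0334 and 0.0091).

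**Figure D5:**
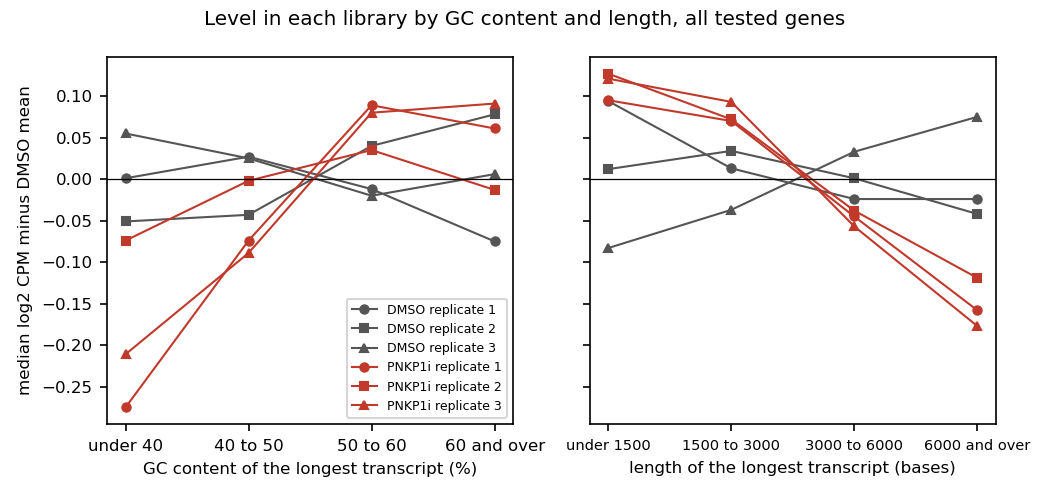
Median log2 CPM minus the DMSO mean (vertical axis) over all tested genes in 4 classes of GC content (left, percent) and of transcript length (right, bases), 1 line per library, grey for DMSO and red for PNKP1i. The red lines lie lowest at under 40% GC, between -0.275 and -0.074, and at 6000 bases and over, between -0.177 and -0.119.

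Lists with lower members are given with these offsets beside them. Among all genes 3.42% were called lower over 6 libraries. In the G2/M list 0 of 30 passed over 12 libraries (5 at an unadjusted p under 0.05 by edgeR, 0 called by DESeq2), 8 were called lower over 6 (MKI67, HMMR, TTK, KIF23, TOP2A, DLGAP5, KIF11 and CENPF) and 3 with the offsets (MKI67, KIF23 and TOP2A), and the median was -0.14. MKI67, the proliferation antigen, was at 249, 270.1 and 291 CPM with DMSO and 163, 163 and 169 CPM with PNKP1i (log2 -0.71, adjusted p = 2.62e-05 over 6 libraries and 0.27 over 12), with 3 treated libraries close together. TOP2A, the mitotic topoisomerase, was at 151, 159.5 and 163 CPM with DMSO and 94.5, 125 and 116 CPM with PNKP1i (log2 -0.5, adjusted p = 0.00382 over 6 libraries and 0.483 over 12). In the list of homologous recombination and checkpoint genes 9 of 21 were lower without overlap (14.2% of all genes), 1 was called lower over 6 libraries, TOPBP1, an activator of ATR (log2 -0.57, adjusted p = 0.00251 over 6 libraries and 0.395 over 12), and the median moved from -0.28 to -0.11 with the offsets. Of the 34 G1/S genes 0 were called in either fit (2 at an unadjusted p under 0.05 by edgeR over 12 libraries and 11 over 6; 0 and 2 called by DESeq2). Replication-dependent histones, which are short, had a median of -0.25 that was -0.29 with the offsets, and 1 of 18, H2BC4, was called lower over 6 libraries, from 14.7, 13.5 and 12.9 to 6.65, 8.18 and 8.49 CPM (adjusted p = 0.00123 over 6 libraries and 0.266 over 12). With the offsets 4 histone genes were called lower over 6 libraries and 1 over 12. Reads of histone genes may be split among near-identical copies.

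Ribosomal protein genes were higher as a group, but the controls were spread along the same axis. Of 44 large-subunit and 32 small-subunit genes 0 passed over 12 libraries (21 and 10 at an unadjusted p under 0.05 by edgeR, 1 and 0 called by DESeq2), while 14 and 8 were called higher over 6, with medians of 0.32 and 0.31. The large-subunit median lay at 0.229, -0.004 and -0.237 in DMSO replicates 1, 2 and 3, so that DMSO replicate 3 was the lowest control. RPLP0, of the ribosomal stalk, was at 2988, 2907 and 1970 CPM with DMSO and 4306, 4071 and 4488 CPM with PNKP1i (log2 0.71, adjusted p = 0.00217 over 6 libraries and 0.183 over 12). RPSA, of the small subunit, was at 2363, 2021 and 1396 CPM with DMSO and 2997, 2858 and 3095 CPM with PNKP1i (adjusted p = 0.00887 over 6 libraries and 0.266 over 12). With the offsets 10 and 8 of the genes of the subunits were called. Many of these genes have processed copies in the genome, and their counts are uncertain in that respect. The 5 members of the ribosome biogenesis list called over 6 libraries, RRP1B, UTP20, NOLC1, NCL and DDX21, were lower, by log2 -0.38, -0.57, -0.33, -0.35 and -0.36. With the offsets RRP1B and NCL were called, and UTP20, NOLC1 and DDX21 were not (adjusted p = 0.097, 0.0731 and 0.202). Of the 13 proteins encoded by mitochondria 0 were called in either fit (1 at an unadjusted p under 0.05 by edgeR over 12 libraries and 1 over 6; 0 and 1 called by DESeq2). Mitochondrial genes took 4.24% to 6.80% of the counts with DMSO and 4.65% to 5.13% with PNKP1i. Of 43 nuclear subunits of the respiratory chain 3 were called higher over 6 libraries, NDUFS7, COX7C and CYC1, of which NDUFS7 and CYC1 were not called with the offsets (adjusted p = 0.0671 and 0.094). Their list median lay at 0.125, 0.006 and -0.186 in DMSO replicates 1, 2 and 3, and at 0.165, 0.166 and 0.208 with PNKP1i. Among all genes 3.64% were called higher and 3.42% lower over 6 libraries.

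NF-kB genes were called over 6 libraries in 5 of 19 members, all higher, with a list median of 0.34 and 0 calls over 12 (6 at an unadjusted p under 0.05 by edgeR, 2 called by DESeq2). Among all genes 3.64% were called higher over 6 libraries. NFKBIA, the inhibitor that NF-kB itself induces, was at 41.2, 42.3 and 38.6 CPM with DMSO and 53.9, 55.2 and 59.01 CPM with PNKP1i (log2 0.46, adjusted p = 0.0037 over 6 libraries and 0.153 over 12). RELB, a subunit of NF-kB, was at 14.2, 13.7 and 14.3 CPM with DMSO and 22.7, 23.6 and 22.4 CPM with PNKP1i (log2 0.7, adjusted p = 0.000426 over 6 libraries and 0.266 over 12). CXCL8, the neutrophil chemokine, went from 0.1197, 0.305 and 0.214 to 0.902, 1.88 and 1.23 CPM (adjusted p = 0.00183 over 6 libraries and 0.218 over 12), with 1 control library under the floor of 3 counts. In these 3 genes PNKP1i and DMSO did not overlap, and TRAF1 and NFKBIE were the other 2 calls, at log2 1.11 and 0.38. NFKBIE was not called with the offsets (log2 0.28, adjusted p = 0.108).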

How the data were processed

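RNA was measured in 12 libraries, 4 groups of 3, of which the 3 DMSO and the 3 PNKP1i libraries are compared. Total RNA came from a TRIzol extraction and was sequenced on a NovaSeq after a NEBNext Ultra preparation, per the labels' protocols. The aligner HISAT2 2.0.5, the counter HTSeq 0.6.1, the tool DESeq2 1.30.1 and the build GRCh38 (hg38) appear in the submitters' processing notes. The annotation and strand setting are not given in the sources used here, so reads of genes that overlap on opposite strands may be mixed. The labels do not say that replicates are separate cultures, so the spread behind each p-value is that of these samples and may be technical.

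The authors deposited raw read counts for 58735 genes, which were tested here, and a normalized signal (the counts divided by 1 factor per library), which was used only in one alternative. Gene types, positions, lengths and GC content came from GENCODE 29, to which all 58735 identifiers matched. No replicate pair held identical counts. Genes were kept with filterByExpr (minimum count 10, minimum total 15), scaled by TMM and tested over all 12 libraries with edgeR 4.0.16 in R 4.3.3 (robust quasi-likelihood F test, two-sided, Benjamini-Hochberg adjustment over the 17290 genes). CPM are scaled by TMM.

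The 54 gene lists (1181 entries, all matched) and the members named were chosen with earlier results of these data known, so they are described by counts and medians without a set test. Named genes are OGG1 and enzymes that join strand breaks, each gene called over 12 libraries, the 8 largest rises and 8 largest falls called over 6 libraries only (mean log2 CPM of at least 3, no overlap), and from each list with a call the members with the smallest p. Further list members were named after their values were seen. A few genes that this rule names, 1 of the 34 among them, are not reported here, though counts and medians include them. Alternatives were other scalings, DESeq2 1.42.0, limma 3.58.1 (voom, and trend on log2 of the normalized values plus 1), other low-count filters, a test against a fold of 1.2, fewer groups, a block for the replicate number, and leaving out each library in turn. Offsets from splines (5 degrees of freedom) of GC content and length in the 6-library fit, and its left-out libraries, were added after seeing the data.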

Additional observations from a re-analysis of the deposited data

How the results depend on the processing

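The count of 34 changed genes was between 30 and 50 with RLE or upper-quartile scaling, limma-voom, limma-trend, a stricter filter or without the combination libraries. GC and length offsets gave 91, DESeq2 gave 115, dropping the filter on low counts gave 189, and testing against a fold of 1.2 gave 12. A fit of only the 6 libraries compared gave 1150 with edgeR and 1194 with DESeq2, and that fit with GC and length offsets 717. Leaving out 1 library gave 7 to 301 calls over 12 libraries and 338 to 1987 over 6 (1987, 714 and 338 without DMSO replicates 1, 2 and 3, and 514 and 385 without PNKP1i replicates 1 and 3). Same-numbered libraries did not deviate together (correlations of deviations of -0.107, -0.19 and -0.077). These deviations are taken from means of 3 libraries, so the correlations cannot exclude a pairing. A fit with the replicate number as a block gave 15 calls over 12 libraries and 935 over 6. The named genes with alternatives kept their direction. The cause of these shifts was not tested. Genes under a few CPM, such as CXCL8 and STC2, are limited by counting error, and no difference in them below the spread of 3 libraries was detectable at this depth.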
